A study of Mus musculus with 3 samples.

Results

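High endothelial venules (HEVs) are the venules through which lymphocytes leave the blood and enter lymph nodes. Their tall endothelial cells carry sialomucins, among them the secreted mucin Glycam1, and decorate these with sulphated and fucosylated sugars to which passing lymphocytes bind. Fut7 adds the fucose, Gcnt1 branches the sugar chain, Chst4 and Chst2 add the sulphate, and Madcam1, Cd34 and Emcn encode further proteins that can carry such sugars. Glycam1 is also made by the lactating mammary gland, so that the gene alone does not define a vessel.

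Bins of tissue that held Glycam1 were examined in the spatial transcriptome of the thymus of one Trp53-/- (KO) mouse. Spots of the BMKMANU S1000 slide were summed into squares of 27 µm, small regions that can hold several cells of different types or parts of them. A bin was kept with at least 300 genes and at most 30% mitochondrial UMIs (unique molecular identifiers, 1 per captured RNA molecule). The Glycam1 bins were the 194 bins with at least 2 Glycam1 UMIs among the 12044 kept bins of section KO1134, or 1.61% (exact binomial 95% interval 1.39 to 1.85%). The series holds 56744 kept bins in all.

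Section KO1134 came from a female Trp53-/- C57BL/6 mouse aged 17 weeks. Section KO1308, from a female Trp53-/- mouse aged 21 weeks, and section WT1101, from a female Trp53+/+ mouse aged 17 weeks on the same background, were not used to choose the bins. The KO allele was constitutive, so every cell of the KO mice, vessels included, carried it. Each section was 1 mouse, with 2 KO mice and 1 WT mouse in all. Glycam1 bins were compared with other bins inside KO1134 and then inside KO1308, so that all intervals given here cover counting error alone and no test was made. Kept bins held 31152699 UMIs in KO1134, 18448911 in KO1308 and 40657073 in WT1101, at a mean of 2587, 1059 and 1491 UMIs per bin. Trp53, which checks the genotype, stood at 17.0 CPM (UMIs of a gene per 1000000 UMIs) in KO1134, 25.3 CPM in KO1308 and 79.8 CPM in WT1101, lower in both KO sections without being absent.

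The bins were chosen by their Glycam1 counts, which are given as a description. Glycam1 reached 2 UMIs in the lowest Glycam1 bin, 5 in the median bin and 414 in the highest. Of the 194 bins, 50 held 2 UMIs, 46 held 3 to 4, 37 held 5 to 9 and 61 held 10 or more, while 210 bins lay just outside the threshold with 1 UMI. The Glycam1 bins held 3471 of the 3681 Glycam1 UMIs of the section (94.3%), and the 10 richest bins alone held 46.8%. Glycam1 was thus packed into few squares. In thymus bins more than 270 µm from any Glycam1 bin, at a median of 2642 UMIs, 32 of 5397 bins (0.593%, exact binomial interval 0.406 to 0.836%) held any Glycam1 UMI. By the same measure 38 of 12796 bins (0.297%) did so in KO1308 and 2 of 24699 (0.0081%) in WT1101, at medians of 776 and 1423 UMIs. How many of these UMIs had moved on the slide was not tested.

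Glycam1 lies on chromosome 15 of GRCm38 (chr15:103562759-103565081, minus strand). The 250 bases before its start, at chr15:103565082-103565331, are shown because this gene chose the bins. The same stretch of Lrg1 (chr17:56121947-56122196, minus strand) is counted from its RefSeq start and is shown because Lrg1 had the largest ratio among the abundant genes below. GENCODE M21 gives Lrg1 at chr17:56119678-56122001, so that by that annotation the downstream end of the stretch lies inside the gene. Both sequences are from RefSeq on GRCm38.p6, written 5′ to 3′ on the strand of the gene, with capitals marking GGAA on either strand, the core letters that ETS factors such as endothelial Erg recognise.
Glycam1: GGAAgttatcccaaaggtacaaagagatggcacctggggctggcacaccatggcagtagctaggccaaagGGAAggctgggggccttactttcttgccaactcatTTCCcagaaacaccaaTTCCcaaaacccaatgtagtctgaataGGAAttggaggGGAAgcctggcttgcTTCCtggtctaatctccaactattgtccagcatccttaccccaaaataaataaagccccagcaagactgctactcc
Lrg1: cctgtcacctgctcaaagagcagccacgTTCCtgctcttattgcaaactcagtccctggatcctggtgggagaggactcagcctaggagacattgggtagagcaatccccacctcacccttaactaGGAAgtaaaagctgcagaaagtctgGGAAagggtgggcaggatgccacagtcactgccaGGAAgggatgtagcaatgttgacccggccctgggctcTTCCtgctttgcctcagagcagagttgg
The Glycam1 stretch held GGAA or its complement 7 times and the Lrg1 stretch 5 times. At least 1 match was found in 93.4% of the 32851 RefSeq promoters of this length, with a median of 3 matches, while 3.82% held 7 or more and 18.03% held 5 or more. The letters AAGTG, the core bound by factors of the Nkx2 family, were in neither stretch on either strand and in 40.7% of all promoters. These matches describe the letters alone.

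Each Glycam1 bin was paired with the nearest unused bin that had 0 Glycam1 UMIs, lay 3 to 6 bins from the nearest Glycam1 bin and differed by at most 10% in UMIs. All 194 bins found a partner, so that 676488 UMIs were set against 655040. Before pairing, the Glycam1 bins were richer than their surroundings, with a median of 3477 UMIs against 2748 in the 2039 candidate bins. Ratios below are of CPM summed over the Glycam1 bins to CPM summed over the paired bins, with exact conditional binomial 95% intervals. CPM values are per UMI and not per transcript length, so that they compare a gene between bins and not one gene with another.

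Genes of vessel endothelium were higher in the Glycam1 bins, HEV genes among them, while the genes of most lymphoid cells around them differed little. The pan-endothelial list stood at 1033 CPM against 340 (ratio 3.04, interval 2.61 to 3.54). In the pairs its share of a bin's UMIs was higher in the Glycam1 bin 138 times, in the partner 41 times and equal 15 times. The HEV marker list, which leaves out Glycam1, stood at 844 CPM against 307 (ratio 2.75, interval 2.34 to 3.25) and was higher in the Glycam1 bin in 119 pairs and in the partner in 50. Across all 9265 genes with at least 20 UMIs the median ratio was 1.01, and 10.7% were at least 1.5-fold higher and 9.61% at least 1.5-fold lower. Against that background, 11 of the 13 pan-endothelial genes with enough UMIs (of 15 listed) and 5 of the 7 HEV markers with enough UMIs (of 14) were at least 1.5-fold higher, and none was 1.5-fold lower. The minimum is taken over Glycam1 bins and partners together, so that a gene rare in the partners reaches it only where it is high in the Glycam1 bins, and these counts are a description. Bins mix vessel cells with their neighbours, so that more cells of a type and more RNA per cell cannot be told apart. With a minimum of 50 UMIs, 274 of 5176 genes (5.29%) were higher and 229 (4.42%) lower by that fold.

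**Figure D1:**
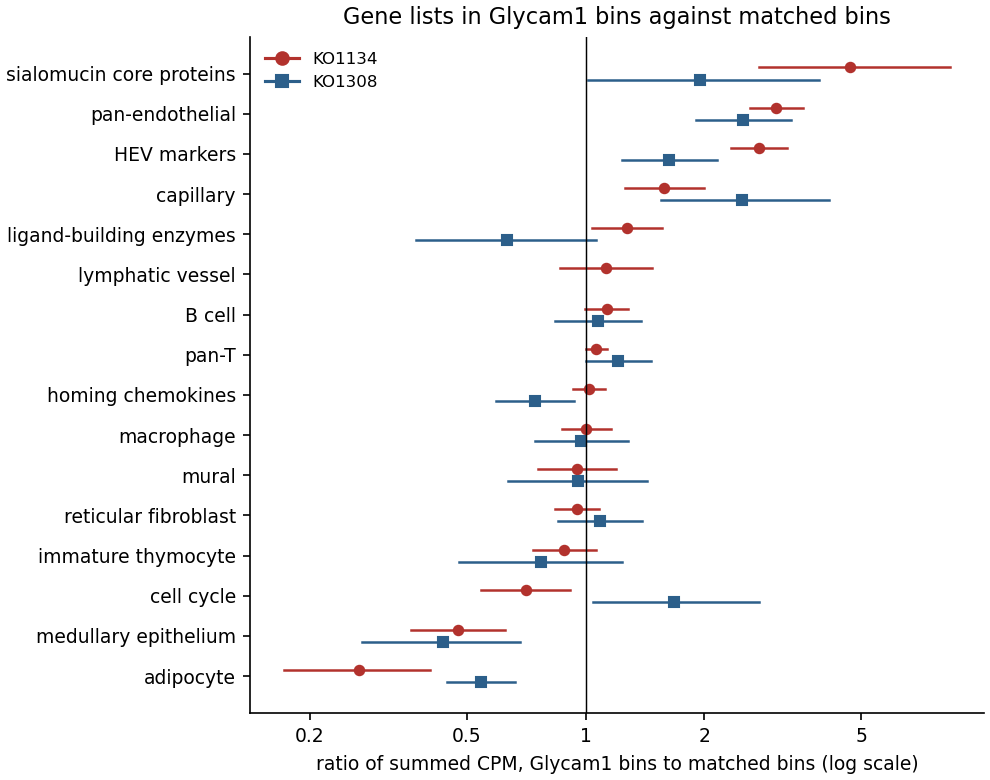
Ratio of summed CPM in Glycam1 bins to matched bins (x, log scale) for 16 gene lists (y) in KO1134 (circles) and KO1308 (squares). Lines are exact 95% counting intervals, lists with under 20 UMIs in a section are left out, and the vertical line marks equal levels. The sialomucin, pan-endothelial and HEV marker lists lie to the right of it in both sections, and the medullary epithelium and adipocyte lists to the left. Without the detached fragment of KO1308 described below, its adipocyte list had 1 against 0 UMIs. Its sialomucin list then had 8 against 4 UMIs, with an interval (0.524 to 8.87) that spanned 1.

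Among the proteins that carry these sugars, 3 genes of 5 reached 20 UMIs. All 3 did so only through their UMIs in the Glycam1 bins, and their values are given as a description. Cd34, a sialomucin of vessel endothelium, had 22 UMIs in the Glycam1 bins and 4 in the partners (ratio 5.33, interval 1.81 to 21.3). Emcn (endomucin) had 21 against 3 UMIs (ratio 6.78, interval 2.02 to 35.5). Cd300lg, which encodes a sialomucin-like endothelial protein of HEVs and other vessels, had 37 against 7 UMIs (ratio 5.12, interval 2.25 to 13.6). The whole list of 5 stood at 121 against 26.0 CPM, a ratio of 4.67 (interval 2.75 to 8.40). Its members Madcam1 and Podxl gave almost nothing, with 1 UMI each in the Glycam1 bins and 2 and 1 in the partners. The sialomucins seen here were thus those that venules share with other vessels, beside the Glycam1 that defined the bins.

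The enzymes that build the sugar ligand were less uniform. Fut7 had 20 UMIs in 14 Glycam1 bins and 2 UMIs in 2 partners (29.6 against 3.05 CPM, ratio 9.68, interval 2.35 to 85.4). Gcnt1, the branching enzyme, had 26 UMIs against 10 (ratio 2.52, interval 1.17 to 5.85). Fut7 reached the minimum only through the Glycam1 bins, and its ratio rested on 2 partner UMIs. It was 3.97 against all ring bins without matching, 2.01 (interval 1.00 to 4.24) in bins of 50 µm and 1.94 (interval 0.101 to 114) without the largest of the sites described below. Fut4, a second fucosyltransferase, had 20 against 11 UMIs (ratio 1.76, interval 0.804 to 4.07), and St3gal6, a sialyltransferase, 34 against 22 (ratio 1.5, interval 0.85 to 2.69), both within counting error. B4galt1 and Chst2, a galactosyltransferase and a sulphotransferase that many cells make, had ratios of 1.06 and 1.16 with intervals on both sides of 1. Over the list of 9 enzymes, 3 of 7 with enough UMIs (Fut7, Gcnt1 and Fut4) were at least 1.5-fold higher, where 10.7% of all genes were, and St3gal6 lay just under that line before rounding. St3gal4 (14 against 21 UMIs) was lower by that fold, as were 9.61% of all genes, with an interval that spanned 1. Of the enzymes named, Gcnt1 and, where it could be counted, Fut7 had intervals above 1.

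Several other genes of the HEV marker list were at or near 0. Chst4, the sulphotransferase most particular to HEVs, gave 1 UMI in the whole KO1134 section, 3 in KO1308 and 5 in WT1101. Nkx2-3, a homeobox gene needed for some mucosal HEVs, gave none in any section. C2cd4b had 0 UMIs in the Glycam1 bins and 1 in the partners, and Sele (E-selectin) had 1 UMI in each. Selp (P-selectin) had 5 UMIs against 1. The label of HEV was thus borne, as a description, by Cd300lg, Ackr1 and Enpp2 beside Glycam1, with Fut7 at the largest site. Of these, Enpp2 alone reached 20 UMIs in the partners too, while Chst4 and Madcam1 gave 1 UMI each in the Glycam1 bins.

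Genes known from venules of lymph nodes were higher as well. Lrg1, a secreted glycoprotein of venular endothelium, had 119 UMIs in the Glycam1 bins against 9 in the partners and was found in 67 of 194 against 6 of 194 bins (176 against 13.7 CPM, ratio 12.8, interval 6.52 to 28.7). Its ratio was 6.36 with partners 6 to 10 bins away, 6.44 in bins of 50 µm, 6.29 without the largest site described below and 34.9 without the second. Ackr1, the chemokine receptor that marks venules, had 30 UMIs in 25 bins against 4 UMIs in 3 bins (ratio 7.26, interval 2.56 to 28.4). The Ackr1 ratio ran from 4.52 without the largest site to 24.3 in bins of 20 µm. Vwf (von Willebrand factor, prominent in veins) had 65 UMIs against 5 (ratio 12.6, interval 5.13 to 40.1). Its ratio ran from 4.27 in bins of 50 µm to 41.7 in bins of 20 µm, and was 6.78 (interval 0.871 to 306) without the second site. Lrg1, Ackr1 and Vwf reached the minimum only through the Glycam1 bins, and their values are given as a description. Enpp2, which encodes autotaxin, the enzyme that HEVs secrete to make lysophosphatidic acid beside migrating lymphocytes, was the most abundant HEV marker. It had 400 UMIs in 129 Glycam1 bins against 132 in 73 partners (591 against 202 CPM, ratio 2.93, interval 2.40 to 3.60). Without Enpp2 the HEV marker list kept a ratio of 2.40. Icam1, an adhesion molecule for arrested lymphocytes, had 37 against 20 UMIs (ratio 1.79, interval 1.01 to 3.26), and Vcam1 had 64 against 66.

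Most of the pan-endothelial genes were higher. Pecam1 (CD31) had 142 UMIs against 53 (ratio 2.59, interval 1.88 to 3.63), with ratios from 1.48 with bins of at least 1 Glycam1 UMI to 6.08 without the largest site. Ramp2, part of the adrenomedullin receptor, had 95 against 40 (ratio 2.3, interval 1.57 to 3.42). The junction protein gene Esam, the co-receptor gene Eng, the fenestral diaphragm gene Plvap and the secreted factor gene Egfl7 had ratios of 4.48, 4.04, 3.21 and 3.12, each with a lower bound above 1.5. The Eng ratio ran from 2.61 with bins of at least 1 Glycam1 UMI to 8.21 with bins of at least 5. The endothelial transcription factor gene Erg had 33 UMIs against 2 (ratio 16.0, interval 4.09 to 137) and Cdh5 (VE-cadherin) 25 against 3 (ratio 8.07, interval 2.46 to 41.8), and both reached the minimum only through the Glycam1 bins. Cldn5 and Ptprb had 12 against 8 and 13 against 11 UMIs and could not be told apart at this depth. Erg stood at 48.8 CPM in the Glycam1 bins, close to the 42.4 CPM of the whole KO1134 section (7.59 in KO1308 and 4.21 in WT1101), so that its ratio reflected partners (3.05 CPM) that lay below the section.

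Of other vessel types, capillary genes were mixed, and the intervals of the rest spanned 1. Aqp1 (a water channel) and Kdr (the VEGF receptor 2) had ratios of 4.38 (interval 2.71 to 7.4) and 3.23 (interval 1.66 to 6.76), whereas Rgcc and Cd36 had ratios of 0.70 and 0.81. The capillary list as a whole had 201 UMIs against 123 (ratio 1.58, interval 1.26 to 2.0), and a ratio of 1.01 without Aqp1. The arterial list summed to 18 UMIs against 23, and none of its 7 genes reached the minimum. Lyve1, of lymphatic vessels, had 96 UMIs against 84 (ratio 1.11, interval 0.817 to 1.5). Mural genes (pericytes and smooth muscle) had a list ratio of 0.95 (interval 0.755 to 1.19), with Abcc9 at 36 against 14 UMIs and Pdgfrb at 14 against 25. As a description, the Glycam1 bins thus differed from their partners in venous and general endothelial genes and in Aqp1 and Kdr. Of these, the venous genes Lrg1, Ackr1 and Vwf reached the minimum only through the Glycam1 bins. A difference in arterial, lymphatic or mural lists was not detectable at this depth.

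**Figure D2:**
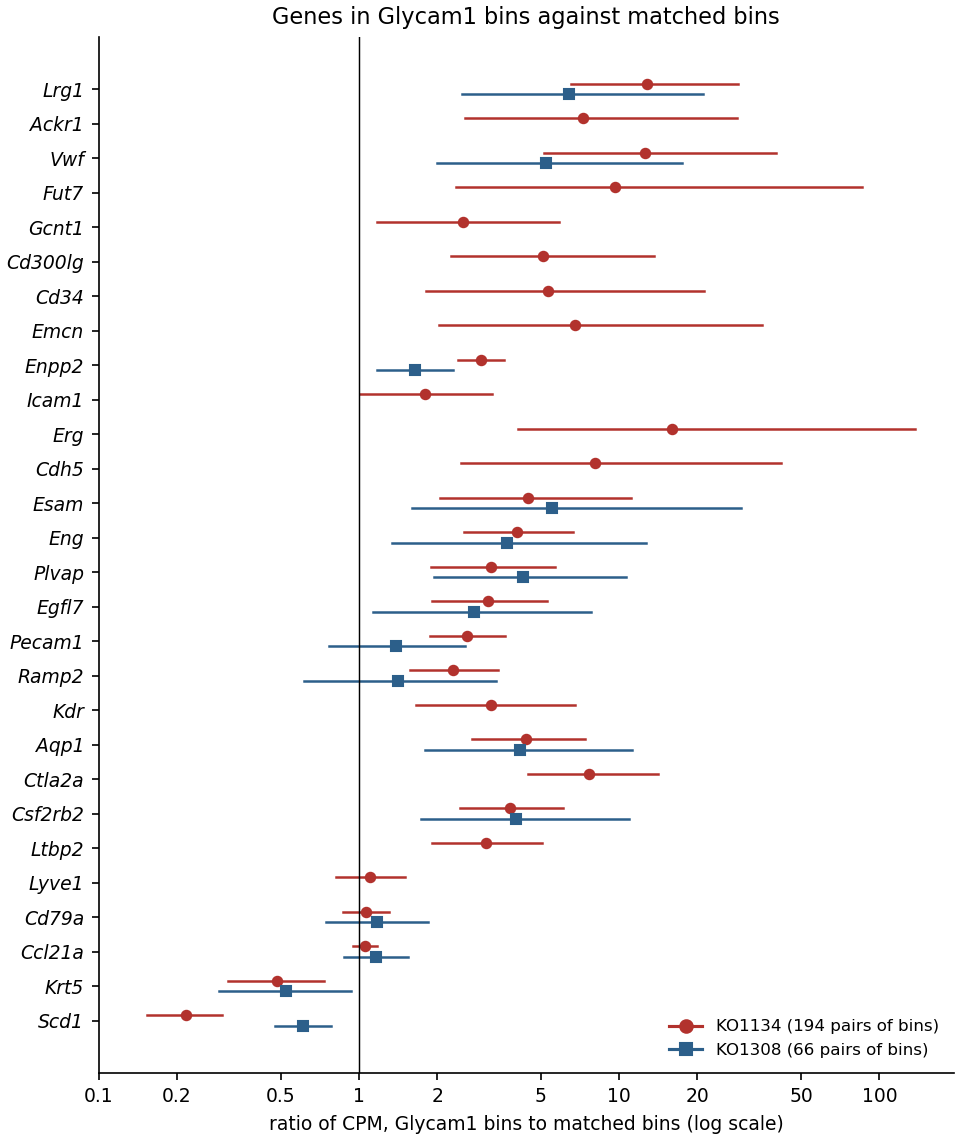
Ratio of CPM in Glycam1 bins to matched bins (x, log scale) for 28 genes (y) in KO1134 (circles) and KO1308 (squares), with exact 95% counting intervals; genes with under 20 UMIs in a section have no mark there. Lrg1, Vwf and the endothelial genes lie to the right of the line of equal levels, Lyve1, Cd79a and Ccl21a on it, and Krt5 and Scd1 to the left. Without the detached fragment of KO1308 described below, Ccl21a there had 52 against 91 UMIs (ratio 0.559, interval 0.389 to 0.794). Scd1 then had 5 against 4 UMIs.

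The 15 genes with the largest ratios among those with at least 100 UMIs were led by Lrg1 and included Eng, Pecam1, Ramp2, Aqp1 and Enpp2. Ctla2a, a cysteine protease inhibitor gene known from endothelium and T cells, had 119 UMIs against 15 (ratio 7.68, interval 4.47 to 14.2), with ratios from 3.76 to 11.8 under the alternatives. Gm49391 and Gm49393 overlap Ctla2a on the same strand and had ratios of 6.78 and 5.0, and the reads of the 3 genes may not be separable. Gm20532 overlaps Egfl7 in the same way (ratio 2.97), and Gtpbp3 overlaps Plvap on the other strand (ratio 2.53). Csf2rb2, a cytokine receptor subunit close in sequence to Csf2rb, had 102 UMIs against 26 (ratio 3.80, interval 2.45 to 6.09). Ltbp2, which binds elastic microfibrils, and Apod (apolipoprotein D) had ratios of 3.07 and 1.99. Ighg2b, an antibody constant gene, had 363 UMIs against 79, but 1 bin held 36.9% of them and the gene was seen in 48 Glycam1 bins against 52 partners. The minimum of 100 UMIs is again taken over both kinds of bins, and Lrg1, Ctla2a and Csf2rb2 reached it mostly through the Glycam1 bins, so that the make-up of these 15 is a description.

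In KO1134 most genes of the lymphoid cells around the vessels differed little between Glycam1 bins and partners. Ccr7, the receptor for Ccl21, had 134 UMIs against 158 (ratio 0.82, interval 0.647 to 1.04). The chemokine Ccl21a, counted under a symbol that near-identical copies share, had 716 UMIs against 656 (1058 against 1001 CPM, ratio 1.06, interval 0.95 to 1.18). B cell genes had a ratio of 1.13 (interval 0.997 to 1.28), which lay between 0.89 and 1.33 with other choices of bins and partners. The ratio was 1.06 for pan-T genes, 1.00 for macrophage genes and 0.95 for reticular fibroblast genes. By site (described below), the reticular fibroblast ratio was 0.771 (interval 0.656 to 0.907) at the largest and 1.39 (interval 1.09 to 1.78) at the second. The pooled 0.95 thus joined opposite differences. Against partners of the same area, macrophage genes had a ratio of 1.55 (interval 1.13 to 2.13) in other bins. That ratio was 0.84 in lymph-node-like and 0.85 in thymus bins, with intervals that spanned 1. The lymphotoxin and NF-kB list, whose pathway maintains HEVs in the adult, had a ratio of 1.02, with Ltb at 416 UMIs against 393 and its receptor gene Ltbr at 19 against 18.

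Lists that were lower in the Glycam1 bins marked medullary epithelium, fat and dividing cells. Medullary thymic epithelium stood at 121 CPM against 255 (ratio 0.48, interval 0.360 to 0.623). All 4 measured genes were at least 1.5-fold lower, where 9.61% of all genes were. Krt5 had 36 UMIs against 72, Krt14 20 against 36, Epcam 14 against 28 and Aire 5 against 17. Against partners of the same area, the list had 23 against 50 UMIs in lymph-node-like, 22 against 39 in thymus and 37 against 76 in other bins (areas and sites are described below). By site, it had 67 against 139 UMIs at the second and 7 against 3 at the largest. The cortical epithelium list went the other way, at 940 against 686 UMIs (ratio 1.33, interval 1.2 to 1.47), of which Ctsl, a lysosomal protease gene that macrophages also express, gave 791 in the Glycam1 bins. Without Ctsl its ratio was 1.07. Adipocyte genes had 30 UMIs against 109 (ratio 0.27), of which the largest site gave 18 against 88 and the second site 0 against 2. The lipid synthesis genes Scd1 and Fasn were among the 10 genes with the smallest ratios, at 0.22 and 0.40 (29 against 182 and 38 against 133 UMIs at the largest site). The Scd1 ratio was 0.685 (interval 0.346 to 1.33) without the largest site and 0.0693 with partners 6 to 10 bins away. Lyz1 (lysozyme) and Fcgbp (a mucus protein) had ratios of 0.36 and 0.44. Sucla2, mt-Rnr2, mt-Nd3 and the mitochondrial-like genes Gm28661 and Gm28438 lay between 0.46 and 0.54. Cell cycle genes had 105 UMIs against 144 (ratio 0.71, interval 0.544 to 0.914).

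Genes of the mammary epithelium, which can also make Glycam1, were rare. The 6 mammary genes summed to 9 UMIs in the Glycam1 bins and 16 in the partners, 3 of the 6 were at 0 in both, and none reached the minimum of 20 UMIs. Erythroid genes summed to 1 UMI against 6 and muscle genes to 1 against 4.

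The section held Glycam1 bins at separate places. Bins were assigned to lymph-node-like, thymus or other areas from B cell and thymus genes in the surrounding window of 7 by 7 bins. Lymph-node-like area made up 1959 bins and held 121 of the Glycam1 bins (6.18% of its bins, interval 5.15 to 7.34%), against 47 of 8676 thymus bins (0.542%) and 26 of 1409 other bins (1.85%). Of all Glycam1 UMIs, 2531 were in the lymph-node-like area. When Glycam1 bins within 540 µm (20 bins) of one another were joined, 3 sites of more than 1 bin resulted, with 125, 57 and 11 bins, beside 1 lone bin. The sites were defined after the values had been seen, and the joining distance was not varied.

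**Figure D3:**
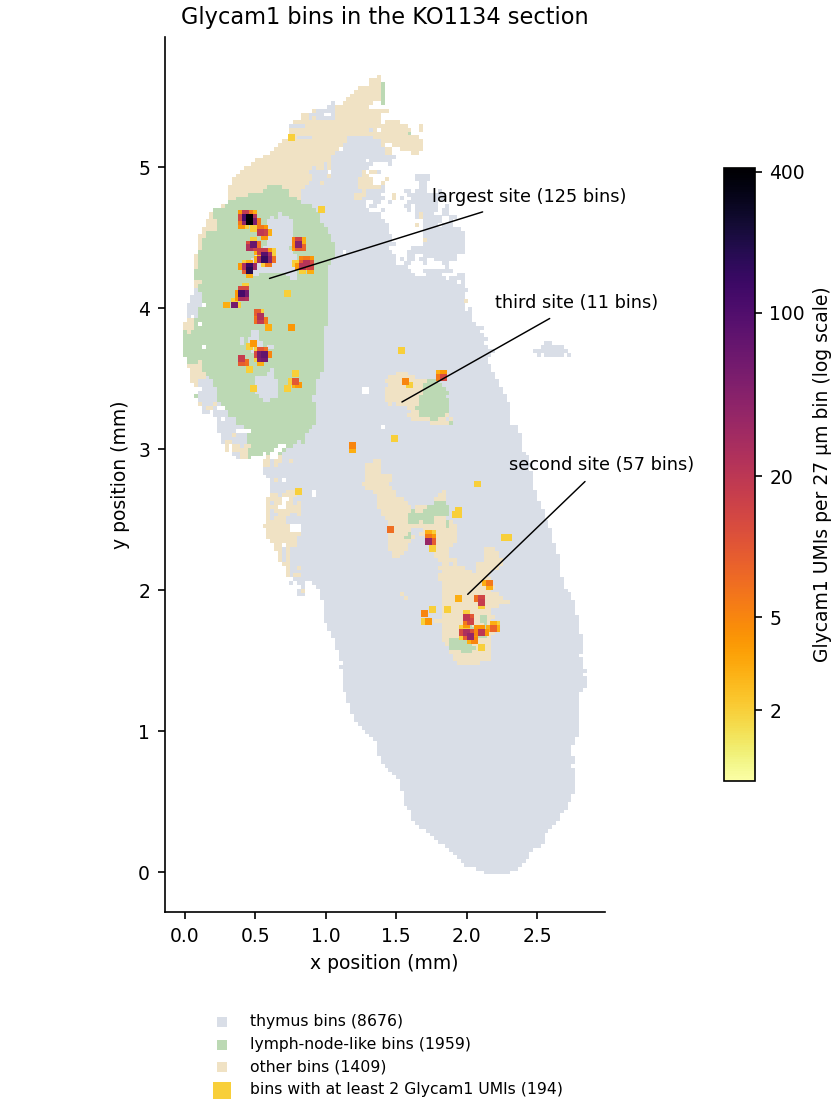
Map of the 12044 kept bins of KO1134 (x and y in mm, drawn to scale), with background colours for the 3 areas and each bin of at least 2 Glycam1 UMIs coloured by its count (log scale). The largest site, of 125 bins, lies at the upper left, with 104 of them in the oval lymph-node-like area. The second site has 57 bins, of which 17 are lymph-node-like, 18 thymus and 22 other.

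The largest site spanned 1386 µm and held 3041 Glycam1 UMIs, with a median of 6 and the highest bin of 414. It lay for 104 of its 125 bins in lymph-node-like area, and its B cell list stood at 1047 CPM. The second site spanned 1188 µm and held 381 Glycam1 UMIs, with a median of 4 and a highest bin of 36. Of its 57 bins, 17 were lymph-node-like, 18 thymus and 22 other, with B cell genes at 298 CPM and medullary epithelial genes at 391 CPM against 15 CPM at the largest site. The second site was therefore in tissue with keratin-positive epithelium, and the largest in a B cell rich body beside the thymus.

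Endothelial genes were higher than in the partner bins at both sites. The pan-endothelial ratio was 2.54 (interval 2.09 to 3.10) at the largest site and 4.0 (interval 3.08 to 5.26) at the second, and the HEV marker ratio was 3.02 (interval 2.33 to 3.95) and 2.63 (interval 2.09 to 3.31). Lrg1 had 67 UMIs against 1 at the largest site and 47 against 7 at the second (ratio 6.49, interval 2.91 to 17.0). Ackr1 had 16 UMIs against 1 and 14 against 3. Lrg1 and Ackr1 were thus found in Glycam1 bins at both places.

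Vwf divided the sites. It had 3 UMIs in 3 of 125 bins at the largest site (6.41 CPM) and 58 UMIs in 28 of 57 bins at the second (339 CPM), a difference of 52.8-fold (interval 17.2 to 264). In the partner bins Vwf had 0 UMIs around the largest site and 4 around the second. Enpp2 was 301 CPM at the largest site and 1320 CPM at the second (4.38-fold, interval 3.53 to 5.44), and its partner bins differed likewise, at 97.1 and 429 CPM. Ltbp2 was 42.8 and 298 CPM (6.97-fold, interval 4.08 to 12.3) and Apod 23.5 and 304 CPM (12.9-fold, interval 6.66 to 27.5), where the partner bins had 22.1 and 60.4 CPM of Ltbp2 and 28.7 and 121 CPM of Apod. Fut7 had 18 UMIs in 12 bins at the largest site (38.5 CPM) and 2 UMIs in 2 bins at the second (11.7 CPM), and the interval of the second to first ratio, 0.034 to 1.27, included 1. Lyve1 was at 205 CPM at the largest site, with 185 CPM in its partners, and had 0 UMIs at the second and in its partners. Pecam1 did not separate the sites, at 209 and 234 CPM (1.12-fold, interval 0.752 to 1.63). The second site thus had more Vwf, Enpp2, Ltbp2 and Apod per UMI than the largest and no Lyve1, and for each of these genes the partner bins of the sites differed in the same direction.

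**Figure D4:**
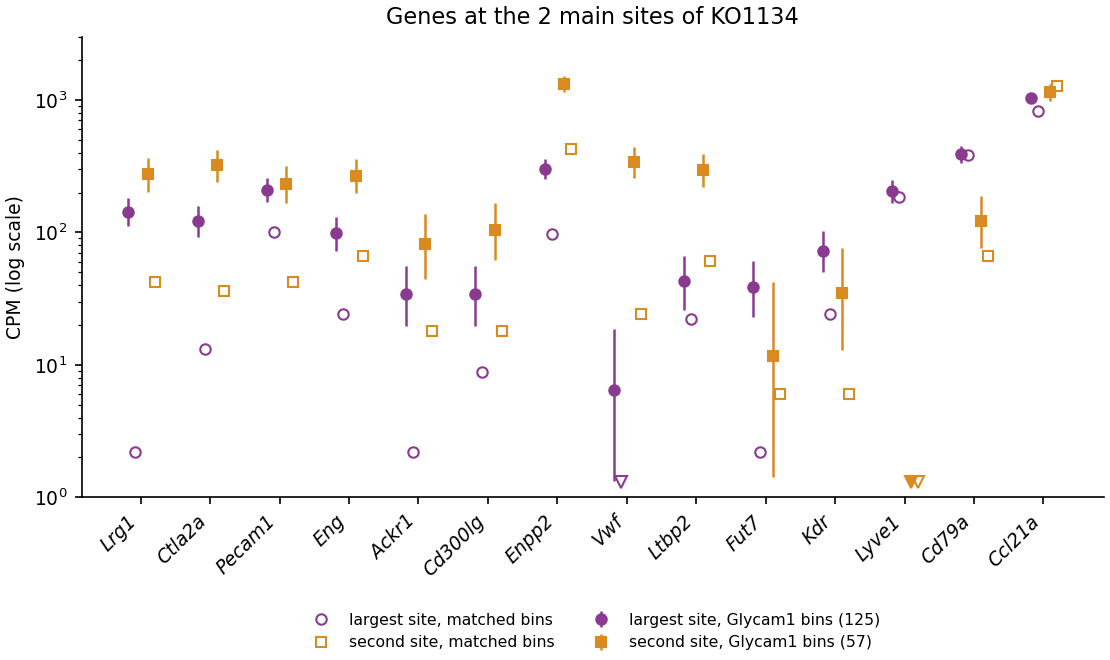
CPM (y, log scale) of 14 genes in Glycam1 bins (filled marks, with exact 95% counting intervals) and their matched bins (open marks, no interval) at the largest site (circles) and the second site (squares) of KO1134; triangles at the bottom mark 0 UMIs. Vwf is 6.41 CPM at the largest site and 339 CPM at the second, Lyve1 is 205 and 0 CPM, and Pecam1 is alike.

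The third site, of 11 bins within thymus and other tissue, had 47 Glycam1 UMIs. Its HEV markers were at 1143 CPM against 504 (ratio 2.27, interval 1.28 to 4.18), with 5 Lrg1, 4 Vwf, 0 Ackr1 and 0 Fut7 UMIs, too few to place it with either of the others.

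Within the areas the same lists were compared with partners of the same area. The HEV marker ratio was 2.76 (interval 2.21 to 3.48) in the lymph-node-like area, 4.02 (interval 2.76 to 5.99) in the thymus area with 46 pairs and 2.02 (interval 1.47 to 2.80) elsewhere. Enpp2 gave 109 of the 144 UMIs of that list in the thymus area, and without it the ratios were 2.92, 1.80 and 1.37, in another order. The pan-endothelial ratio was 2.56, 4.01 and 4.22. In the thymus area the Glycam1 bins also had more B cell genes (74 against 23 UMIs, ratio 3.14, interval 1.94 to 5.26) and fewer immature thymocyte genes (54 against 85 UMIs, ratio 0.62, interval 0.432 to 0.882) than their thymic partners. In the lymph-node-like area the B cell ratio was 1.07 (interval 0.932 to 1.22) and the immature thymocyte ratio 1.03 (interval 0.816 to 1.3), and in other bins they were 0.978 and 1.24, with intervals that spanned 1. Genes of both lists, Cd79a and Cd8b1 among them, had also served to draw the areas. Of the Glycam1 bins in the thymus area, 21 belonged to the largest site. The B cell and immature thymocyte ratios within areas are therefore given as a description.

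Glycam1 bins lay next to one another. They formed 42 connected patches, 20 of them of 1 bin, and 9 patches of at least 8 bins held 130 bins. The largest patch, of 28 bins at the second site, held 227 Glycam1 UMIs, with HEV markers at 1967 CPM. A patch of 17 bins at the largest site held 1087 Glycam1 UMIs, with HEV markers at 565 CPM. Of the 9 larger patches, all had Lrg1 UMIs, 8 had Ackr1 and 3 had Vwf. The amount of Glycam1 in a patch and the level of the other HEV markers were thus not in the same order.

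Across bins, levels of several vessel genes followed the Glycam1 count, which mixes the sites and is given as a description. Pan-endothelial genes stood at 358 CPM in candidate control bins with 0 Glycam1 UMIs, 495 with 1, 872 with 2 to 4, 974 with 5 to 19 and 1536 with 20 or more. Lrg1 followed at 17.0, 34.9, 97.3, 135 and 442 CPM. Fut7 was at 7.45, 9.97, 3.14, 17.5 and 116 CPM, so that it was high in the top class of 34 bins alone, where it had 15 UMIs. Vwf was at 13.3, 26.6, 100, 109 and 62.1 CPM and did not follow the count. Medullary epithelial genes stood at 325, 238, 182, 87.4 and 31.0 CPM in the same order, and B cell genes between 606 and 839 CPM.

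Levels were also read by distance from the 548 spots with at least 2 Glycam1 UMIs, which themselves are left out of the values. Glycam1, whose fall with distance the choice of spots favours, stood at 1847 CPM in spots less than 5 µm away, 683 at 5 to 15 µm, 265 at 15 to 25 µm, 58.0 at 25 to 40 µm and 9.18 at 60 to 100 µm. Lrg1 was at 199, 86.2, 49.5 and 15.5 CPM over the first 4 of these distances and Ackr1 at 69.1, 36.5, 17.3 and 1.3 CPM. Fut7 was at 77.7 CPM within 5 µm, on 9 UMIs, and 6.63 CPM at 5 to 15 µm. Pan-endothelial genes came down from 1269 to 428 CPM by 25 to 40 µm and lay at 338 CPM at 40 to 60 µm. B cell genes went from 872 to 740 CPM by 25 to 40 µm and lay at 678 CPM at 60 to 100 µm and 441 CPM at 160 to 240 µm. The share of this spread that comes from RNA moving on the slide was not tested.

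**Figure D5:**
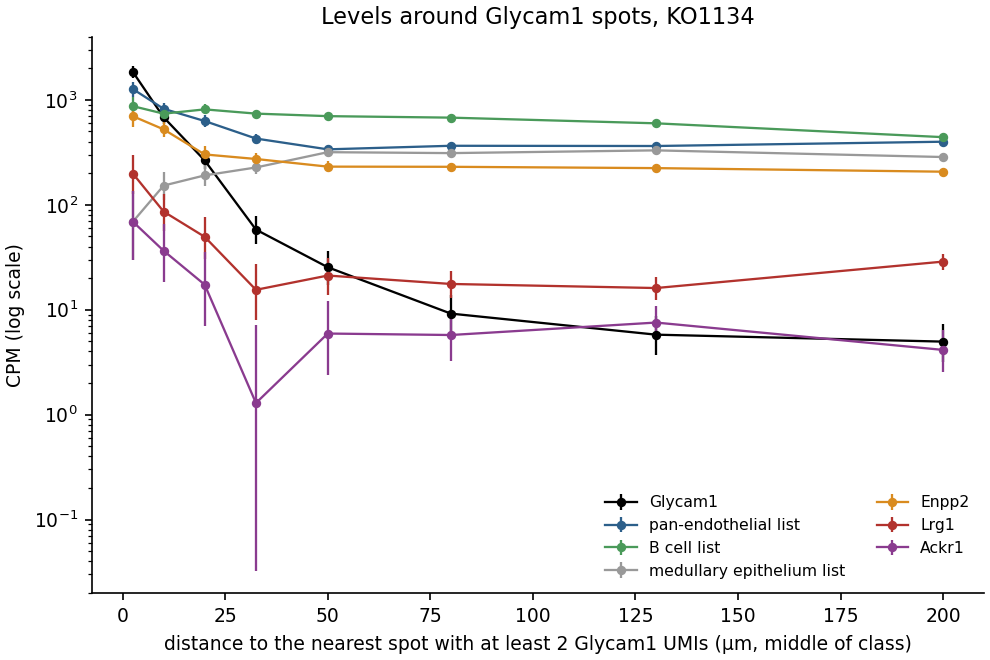
CPM (y, log scale) of Glycam1, 3 other genes and 3 gene lists against the distance to the nearest spot with at least 2 Glycam1 UMIs (x, middle of the class, µm) in KO1134, with exact 95% counting intervals; the spots with at least 2 Glycam1 UMIs are left out. Glycam1, Lrg1 and Ackr1 come down within 40 µm, B cell genes come down slowly, to 441 CPM in the last class, and medullary epithelial genes are lowest beside the Glycam1 spots.

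To compare with vessels that lack Glycam1, bins with at least 3 UMIs of Pecam1, Cdh5, Cldn5, Egfl7, Esam and Tie1 together were taken. Of the Glycam1 bins, 46 (23.7%) passed, against 5.15% of the paired bins and 287 bins with 0 Glycam1 UMIs in the section. After matching the 46 to as many of the 287 on UMIs, Pecam1 had a ratio of 1.02, which the choice of bins favours, while the pan-endothelial list was still higher (352 against 221 UMIs, ratio 1.53, interval 1.29 to 1.81). Lrg1 still had 57 UMIs against 5 (ratio 10.9, interval 4.42 to 34.9), in 26 against 5 bins. Ctla2a had a ratio of 4.31, Csf2rb2 3.51, App (amyloid precursor protein) 3.02 and Enpp2 2.56, each with a lower bound above 1.5. Genes lower in the Glycam1 bins were led by Cfd and Scd1, of fat, at 1 against 65 and 4 against 80 UMIs, where 6 and 15 partner bins held the UMIs. Of 3346 genes with at least 20 UMIs, 14.3% were at least 1.5-fold higher and 14.9% lower. Lrg1, Ctla2a and Csf2rb2 had 5, 12 and 15 UMIs in the partners, under the minimum of 20, so that their ratios are given as a description. Enpp2 had 171 against 64 UMIs. Among endothelial bins of this section, Enpp2 was higher in those with Glycam1, where endothelial genes as a whole were higher too. These pairs were not matched on area, and 31 of the Glycam1 bins against 23 of the partners were lymph-node-like.

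The sections not used for the choice were read by the same rule. In KO1308, 67 of 17425 bins (0.385%, interval 0.298 to 0.488%) held at least 2 Glycam1 UMIs, with a median of 3 and a highest of 52, and Glycam1 stood at 27.3 CPM over the section. In WT1101 1 of 27275 bins passed, with 8 Glycam1 UMIs in all (0.197 CPM, exact Poisson interval 0.0850 to 0.388), against 118 CPM in KO1134. Section depth differed, at a mean of 1059 UMIs per bin in KO1308 and 1491 in WT1101. The WT section held 0 lymph-node-like bins. In thymus-area bins alone Glycam1 stood at 42.8 CPM in KO1134, 7.12 in KO1308 and 0.13 in WT1101. At medians of 2651, 804 and 1422 UMIs, 1.69%, 0.596% and 0.0161% of these bins held at least 1 UMI. In KO1134, 21 of the 47 Glycam1 bins of the thymus area belonged to the largest site, most of which was lymph-node-like. The thymus-area value of KO1134 was thus not clear of the border of the lymph-node-like area. With 1 WT mouse, another permeabilisation time and no lymph-node-like bins in its section, genotype, mouse, slide treatment and the tissue captured cannot be told apart. Over whole sections, which differed in the tissue they held, the venule genes were present in WT1101 at lower levels than in both KO sections. In KO1134, KO1308 and WT1101, Lrg1 stood at 23.2, 23.3 and 7.53 CPM and Ackr1 at 6.32, 6.34 and 3.74 CPM. Enpp2 was at 158, 183 and 62.1 CPM in that order. Vwf stood at 13.7, 24.6 and 11.3 CPM in the same order.

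In KO1308, 66 of the 67 bins were paired. The pan-endothelial ratio was 2.5 (interval 1.90 to 3.32) and the HEV marker ratio 1.63 (interval 1.23 to 2.15). Of 7 measured pan-endothelial genes, 5 were at least 1.5-fold higher, where 16.7% of 2338 genes were higher and 13.5% lower. In the partners, Eng, Egfl7, Plvap, Vwf and Lrg1 had 5, 7, 8, 5 and 5 UMIs, under the minimum of 20. That count of genes and the ratios of these genes are therefore given as a description. Lrg1 had 33 UMIs in 22 bins against 5 in 4 (ratio 6.42, interval 2.49 to 21.1), Vwf 27 against 5 (ratio 5.26, interval 2.0 to 17.5) and Ackr1 11 against 1. Madcam1 had 9 UMIs against 0, where KO1134 had 1 against 2, but it had 0 UMIs without the detached fragment described below. Ligand-building enzymes had 26 UMIs against 40 (ratio 0.63, interval 0.371 to 1.06), with 1 Fut7 UMI. Medullary epithelial genes were lower in this section too (29 against 65 UMIs, ratio 0.43, interval 0.270 to 0.683). Cell cycle genes had a ratio of 1.68 (interval 1.04 to 2.75), where KO1134 had 0.71. The B cell zone chemokine Cxcl13 had 2 UMIs against 67 in KO1308, or 1 against 3 without the fragment, and 5 against 12 in KO1134. Of genes of lymphocytes that leave and enter the blood, Il7r (the interleukin 7 receptor) had 34 against 16 (ratio 2.07, interval 1.11 to 4.01), S1pr1, a lymphocyte exit receptor, 18 against 7 and Klf2, a transcription factor, 32 against 19, both with intervals that spanned 1. Without the fragment these were 24 against 13 (ratio 1.80, interval 0.883 to 3.86), 7 against 3 and 10 against 11. In KO1134 the ratios were 1.06, 1.06 and 0.954.

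In KO1308, 30 of the 67 bins lay outside the connected tissue groups of at least 200 bins, 29 of them in one patch with 256 Glycam1 UMIs, 19 of Lrg1 and 9 of Ackr1 in a lymph-node-like fragment. Without the bins outside tissue groups, 36 pairs gave a pan-endothelial ratio of 2.91 (interval 1.99 to 4.34) and an HEV marker ratio of 1.82 (interval 1.27 to 2.62), with Lrg1 at 13 against 1 UMIs, Vwf at 18 against 5 and Ackr1 at 2 against 0. The pan-endothelial ratio of KO1308 was thus as large without the fragment, which held most of the Ackr1 UMIs. Without it, the HEV marker ratio rested on Enpp2, with 78 of 91 UMIs in the Glycam1 bins and 30 of 49 in the partners. The other HEV markers together were not higher. Against partners of the same area, the HEV marker ratio was 1.32 (interval 0.864 to 2.04) in lymph-node-like bins of KO1308, within counting error, and 1.81 (interval 1.18 to 2.84) in other bins, or 3.36 and 0.964 without Enpp2. The pan-endothelial ratio was 2.19 (interval 1.49 to 3.28) and 2.70 (interval 1.76 to 4.24).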

How the data were processed

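The authors made the libraries on BMKMANU S1000 slides, with 1 permeabilisation time for KO and another for WT sections, and processed the reads with BSTMatrix and STAR; the submitters' processing notes name GRCm38. The deposited files give raw UMI counts of each gene in each spot as whole numbers, and the position of each spot. Read filters beyond this are not given in the sources used here.

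Genes sharing a symbol were summed. Of 54838 gene identifiers, 99.8% were in GENCODE M21. Bins, partners, ratios and intervals were computed with Python 3.11.15, numpy 2.4.6, scipy 1.17.1 and pandas 2.3.3, and the ratio was checked on simulated data. Intervals are 95% exact Poisson (CPM), conditional binomial (ratios) and binomial (shares). Genes named are members of the gene lists with at least 20 UMIs in Glycam1 bins and partners together, and the 15 largest and 10 smallest ratios among genes with at least 100 UMIs. Genes outside this rule (such as Chst4, Madcam1, App and Cxcl13) and the sites were chosen after their values were seen. The bins, lists and areas were chosen with earlier results of these data known. No doublet caller was run, since a bin is a region. The alternatives tried concern the Glycam1 threshold, the partners, bin width, bin filters, denominator and place.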

Additional observations from a re-analysis of the deposited data

Results flagged for a closer look

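In KO1308, bins under the minimum of 300 genes, which entered no comparison, held 50 Glycam1 UMIs, or 19 CPM, above the 1.14 CPM that a count of 0 would allow in that section (3 of 2632250 UMIs). Such bins of WT1101 held 0 Glycam1 UMIs, which allows up to 3.25 CPM. Such bins of KO1134 held 2 Glycam1 UMIs of 79418 (25.2 CPM), fewer than the 3 UMIs of the limit (37.8 CPM at that depth), so that the level there could not be set against KO1308.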

How the results depend on the processing

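The pan-endothelial and HEV marker ratios had their whole interval above 1 under each of their 13 alternatives (1.96 to 3.92 and 1.97 to 3.48). The B cell ratio lay on both sides of 1 (0.89 to 1.33) and the immature thymocyte ratio, 0.88 (interval 0.734 to 1.06) as reported, between 0.70 and 0.98, with an interval wholly below 1 only for the unmatched ring. Settings not named below left every one of these values inside its counting interval, or gene counts within 1.5-fold. Taking bins with at least 1 Glycam1 UMI gave 404 bins, with ratios of 2.19 for HEV markers, 2.05 for pan-endothelial and 0.98 for B cell genes. At least 5 UMIs gave 98 bins, ratios of 3.48 and 3.56 for HEV markers and pan-endothelial genes, and 166 genes higher and 143 lower. All bins of the ring, unmatched, gave a B cell ratio of 1.32 with 827 genes higher and 2119 lower among the 11870 genes that then reached the minimum. Partners 6 to 10 bins away gave ratios of 3.25, 2.3 and 0.90 for HEV markers, pan-endothelial and B cell genes, with 492 genes higher and 363 lower. Partners nearest in UMIs gave a B cell ratio of 0.89 and 416 genes lower. Bins of 20 µm gave 237 bins and an HEV marker ratio of 3.36, and bins of 50 µm 134 bins and ratios of 1.97 and 1.96. A minimum of 200 UMIs per gene left 1065 genes, 12 higher and 12 lower. The settings that leave out a site were added after seeing the data. Without the second site, 137 bins gave a pan-endothelial ratio of 2.58. Without the largest site, 69 bins gave 3.92, a B cell ratio of 1.33, an immature thymocyte ratio of 0.70, and 106 genes higher and 110 lower. Other causes of these shifts were not tested.

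Counting error is a lower limit of the true error, since bins of one vessel and one section are not independent. At 194 bins, genes under 20 UMIs, Chst4 and Selp among them, cannot be compared. No paired analysis was possible because no result comes from a test between samples, and nothing in the labels pairs a KO with the WT mouse.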
